A study of Mus musculus with 4 samples.

Results

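Chromatin accessibility was examined at 10 genes of the pluripotency network, Pou5f1, Nanog, Sox2, Klf2, Klf4, Klf5, Esrrb, Zfp42, Tfcp2l1 and Dppa5a, among 21827 protein-coding genes with an annotated transcription start site (TSS). The genes were chosen by name, and a peak was assigned to them when it lay within 1 kb (promoter) or within 50 kb of the TSS in mm10. Merging overlapping peaks of all libraries gave 80380 regions, of which 101 lay within 50 kb of these genes. Accessibility was measured by ATAC-seq, in which a transposase inserts sequencing adapters into open DNA, so that fragments pile up over accessible sites. Embryoid bodies (EBs), aggregates of differentiating embryonic stem cells, were collected on day 4 in 2 WT and 2 CTCF-K20R libraries, described as biological replicates. Both genotypes derive from the mouse line E14Tg2A, which was kept on inactivated mouse embryo fibroblasts with serum, LIF and the inhibitors CHIR99021 and PD0325901, and was then differentiated in hanging drops in serum without LIF. In CTCF-K20R cells, lysine 20 of the architectural protein CTCF was replaced by arginine through CRISPR/Cas9 editing and colony selection, and the peak lists cannot read this change.

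OCT4 (encoded by Pou5f1), SOX2 and NANOG form the core of the network that holds embryonic stem cells in self-renewal, and they bind enhancers of one another's genes. KLF2, KLF4, KLF5, ESRRB and TFCP2L1 support the naive state maintained by LIF and 2i, and Zfp42 (also called Rex1) and Dppa5a are widely used markers of it. When the cells differentiate, naive factors are switched off early, whereas Pou5f1, Sox2 and Nanog can persist in epiblast-like and streak-like cells. An EB is a mixture of cell types, so that a lower share of cells with an open site and less opening per cell cannot be told apart.

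In WT, 59783 and 66703 peaks were listed, and in K20R 51823 and 55832. Each peak carries a summit fold over the local background of its own library, and the number of fragments over the summit (the pileup) was recovered from the deposited fold and p. Median folds were 4.68 and 5.85 in WT against 4.73 and 6.04 in K20R, so the second library of each genotype was the more enriched. Between 50.5% and 60.8% of the peak numbers remain in a list, and a missing peak may therefore have been taken out of it. Promoter peaks of the day 4 markers T, Mixl1, Eomes, Mesp1, Fgf5, Dnmt3b, Otx2 and Pou3f1 were present in all 4 lists. Such peaks were present at 64.7% of all protein-coding genes with a TSS, so their presence alone does not mark a cell type.

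The sequences at the sites on which the comparisons below turn are given here as the 201 bases centred on the strongest summit, from the RefSeq mm10 genome (GRCm38.p6), on the strand of the gene. They comprise the Pou5f1 promoter region, regions near Nanog, Sox2, Klf5 and Dppa5a that passed the test on pileup, and K20R-restricted regions near Sox2 and Dppa5a. None of these windows overlaps an annotated exon. Capitals mark matches, on either strand, to the octamer ATGCAAAT, to the SOX sequence CATTGT, to the KLF sequence GGGNGNGGC, to the ESRRB sequence TCAAGGTCA, or to the TFCP2L1 or CTCF consensus.
Pou5f1 promoter region, chr17:35505059-35505259, plus strand: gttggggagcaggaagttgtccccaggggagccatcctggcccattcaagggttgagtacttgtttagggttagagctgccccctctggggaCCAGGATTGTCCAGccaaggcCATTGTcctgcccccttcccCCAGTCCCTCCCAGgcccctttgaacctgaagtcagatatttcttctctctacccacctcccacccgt
Nanog 4.31 kb upstream, chr6:122702567-122702767, plus strand: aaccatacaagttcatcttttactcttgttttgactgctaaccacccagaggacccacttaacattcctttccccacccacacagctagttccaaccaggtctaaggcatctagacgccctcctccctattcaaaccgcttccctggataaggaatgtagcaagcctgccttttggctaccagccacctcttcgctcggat
Nanog 7.23 kb downstream, chr6:122715920-122716120, plus strand: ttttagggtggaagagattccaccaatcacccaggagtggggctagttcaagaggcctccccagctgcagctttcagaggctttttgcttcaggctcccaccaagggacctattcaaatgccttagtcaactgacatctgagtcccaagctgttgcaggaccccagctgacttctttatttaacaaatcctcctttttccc
Sox2 3.29 kb downstream (K20R-restricted), chr3:34653908-34654108, plus strand: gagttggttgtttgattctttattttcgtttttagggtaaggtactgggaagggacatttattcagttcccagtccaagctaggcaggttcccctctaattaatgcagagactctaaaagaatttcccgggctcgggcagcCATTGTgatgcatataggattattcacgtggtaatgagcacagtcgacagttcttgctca
Sox2 20.5 kb downstream, chr3:34671353-34671553, plus strand: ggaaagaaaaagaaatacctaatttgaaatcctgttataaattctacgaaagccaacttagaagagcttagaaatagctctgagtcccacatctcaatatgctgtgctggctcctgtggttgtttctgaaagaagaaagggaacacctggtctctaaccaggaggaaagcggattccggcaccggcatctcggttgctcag
Klf5 40.4 kb downstream, chr14:99340147-99340347, plus strand: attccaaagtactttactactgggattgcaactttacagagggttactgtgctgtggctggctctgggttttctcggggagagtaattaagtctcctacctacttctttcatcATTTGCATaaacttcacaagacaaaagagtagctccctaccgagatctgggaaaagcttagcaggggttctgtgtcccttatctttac
Dppa5a 0.913 kb upstream, chr9:78369430-78369630, minus strand: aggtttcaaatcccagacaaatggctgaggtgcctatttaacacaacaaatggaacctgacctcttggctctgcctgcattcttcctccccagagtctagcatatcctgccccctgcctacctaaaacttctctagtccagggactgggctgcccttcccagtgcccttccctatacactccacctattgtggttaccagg
Dppa5a 2.95 kb downstream (K20R-restricted), chr9:78364840-78365040, minus strand: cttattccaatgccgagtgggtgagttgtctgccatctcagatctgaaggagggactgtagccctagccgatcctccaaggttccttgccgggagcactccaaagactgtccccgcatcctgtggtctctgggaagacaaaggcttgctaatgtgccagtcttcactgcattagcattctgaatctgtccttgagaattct
Dppa5a 9.40 kb downstream, chr9:78358178-78358378, minus strand: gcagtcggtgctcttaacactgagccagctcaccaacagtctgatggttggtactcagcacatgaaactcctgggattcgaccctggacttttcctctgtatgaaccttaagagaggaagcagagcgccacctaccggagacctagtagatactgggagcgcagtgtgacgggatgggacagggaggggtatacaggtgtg
In these windows, the Pou5f1 promoter region held a SOX match between a pair of TFCP2L1 matches, the Klf5 region 40.4 kb downstream held an octamer on the reverse strand, and the Sox2 region 3.29 kb downstream held a SOX match. The other windows shown held no exact match to these letters. Near matches, which differ in a base, were not searched for, so a binding site is not excluded there. Over all 101 regions, ESRRB matches occurred in 3 (2.97%), against 0.374% of all regions. Octamer matches occurred in 3 (2.97%, against 1.83%), SOX matches in 8 (7.92%, against 8.88%), KLF matches in 13 (12.9%, against 15.5%), TFCP2L1 matches in 8 (7.92%, against 6.26%) and CTCF matches in 4 (3.96%, against 5.97%). The ESRRB matches lay near Pou5f1 (20.0 and 38.8 kb away) and Esrrb (35.4 kb upstream), all in regions that were not shared by the 4 lists.

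All 10 genes kept a promoter peak in each of the 4 libraries, which 14125 of the 21827 genes (64.7%) did. The lists held 72 and 81 peaks within 50 kb of the 10 TSSs in WT against 79 and 79 in K20R. The difference of 2.5 between the means was smaller than the SD of 6.36 between the WT libraries (exact two-sided permutation test, p = 1, n = 2 per genotype). Per 1000 peaks of a list, this was 1.20 and 1.21 in WT against 1.52 and 1.41 in K20R, a difference of 0.260 with no overlap between genotypes (exact permutation p = 0.333, the smallest that 2 against 2 libraries allow). Of the 101 regions, 54 (53.5%) had a peak in all 4 lists, against 47.9% of all regions. Pou5f1 and Sox2 had the most regions (17 each), and Klf4 had only 2.

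**Figure D1:**
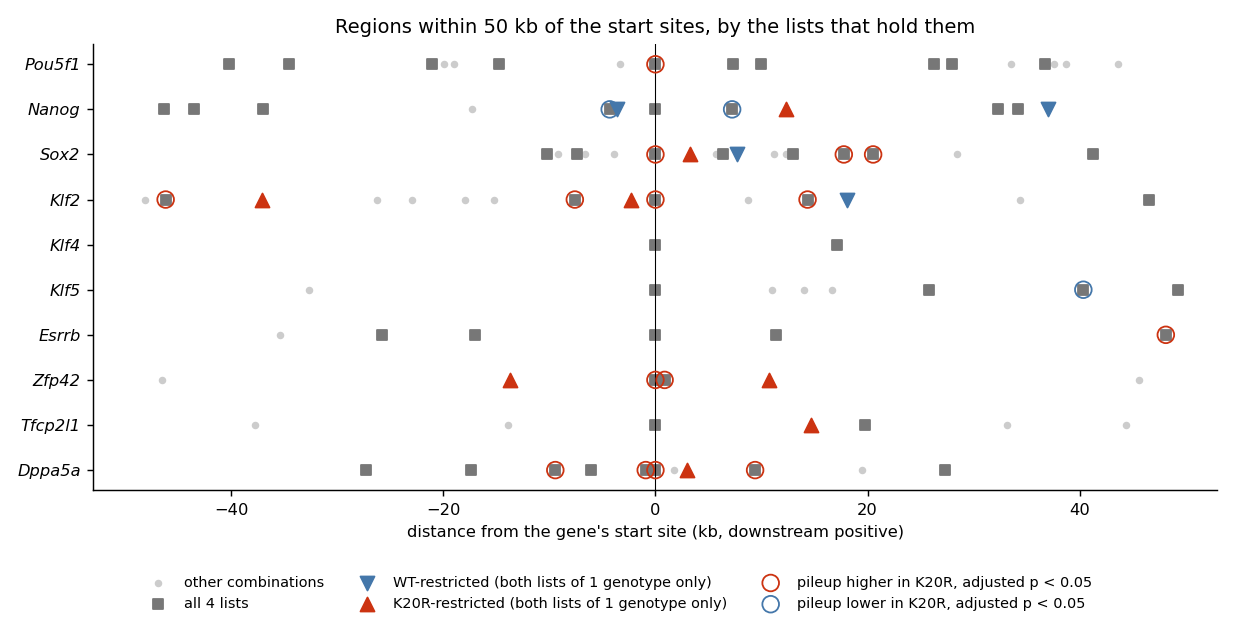
Regions within 50 kb of the TSS of each gene (rows), placed by distance from the TSS in kb. Symbols give the lists that hold a region, and circles mark the 15 common regions with higher and the 3 with lower normalized pileup in K20R (limma adjusted p below 0.05), which cluster around Dppa5a, Sox2, Klf2 and Zfp42 for the former and Nanog and Klf5 for the latter.

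The promoters were first compared by the rank of their peak within its own list, as the percentile of −log10 p, where 100 is the strongest. The Pou5f1 peak was at percentile 77.9 and 79.3 in WT against 84.9 and 87.7 in K20R. The Sox2 peak was at 63.9 and 63.6 in WT against 68.4 and 72.9 in K20R. Both core factors thus ranked higher in the 2 K20R libraries than in either WT library. Nanog, the third of them, was at 73.7 and 82.5 in WT against 72.1 and 68.5 in K20R, with the K20R values below both WT values. The Zfp42 promoter was at 79.9 and 86.8 in WT against 89.3 and 92.4 in K20R. The Dppa5a promoter, of a gene that encodes an RNA-binding KH-domain protein, was at 65.7 and 72.4 in WT against 78.7 and 77.6 in K20R. The promoters of these naive markers therefore ranked above both WT values in both mutant libraries.

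Tfcp2l1, which encodes a grainyhead-family factor, was at 87.3 and 90.4 in WT against 92.0 and 90.8 in K20R. Esrrb, which encodes an orphan nuclear receptor, was at 82.4 and 76.1 in WT against 73.0 and 74.2 in K20R. Klf4, a target of LIF signalling, was at 80.7 and 81.7 in WT against 82.6 and 71.3 in K20R, which overlapped. Klf2 (98.6 and 98.9 in WT, 99.0 and 99.3 in K20R) and Klf5 (98.7 and 98.5 in WT, 98.4 and 98.2 in K20R) were among the strongest peaks of each list, and their genotypes were separated by less than 1 percentile.

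Counted this way, 6 promoters ranked higher in K20R without overlap (Pou5f1, Sox2, Klf2, Zfp42, Tfcp2l1 and Dppa5a), 3 ranked lower (Nanog, Klf5 and Esrrb) and 1 overlapped. Over the 14125 genes with a promoter peak in all 4 lists, 16% ranked higher and 32% lower without overlap. When the promoters were ranked anew among these genes only, which removes differences in what else a list holds, the same 6 genes ranked higher, none of the 10 ranked lower, and 4 overlapped. The shares of all genes were then 23.9% higher and 23% lower. Ranked anew, Zfp42 was at 34.0 and 48.7 in WT against 63.0 and 71.0 in K20R, and Dppa5a was at 13.8 and 19.2 in WT against 35.7 and 30.7 in K20R. Ranking by fold instead of −log10 p left 2 higher and 1 lower, against 14.3% and 24.5% of all genes.

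**Figure D2:**
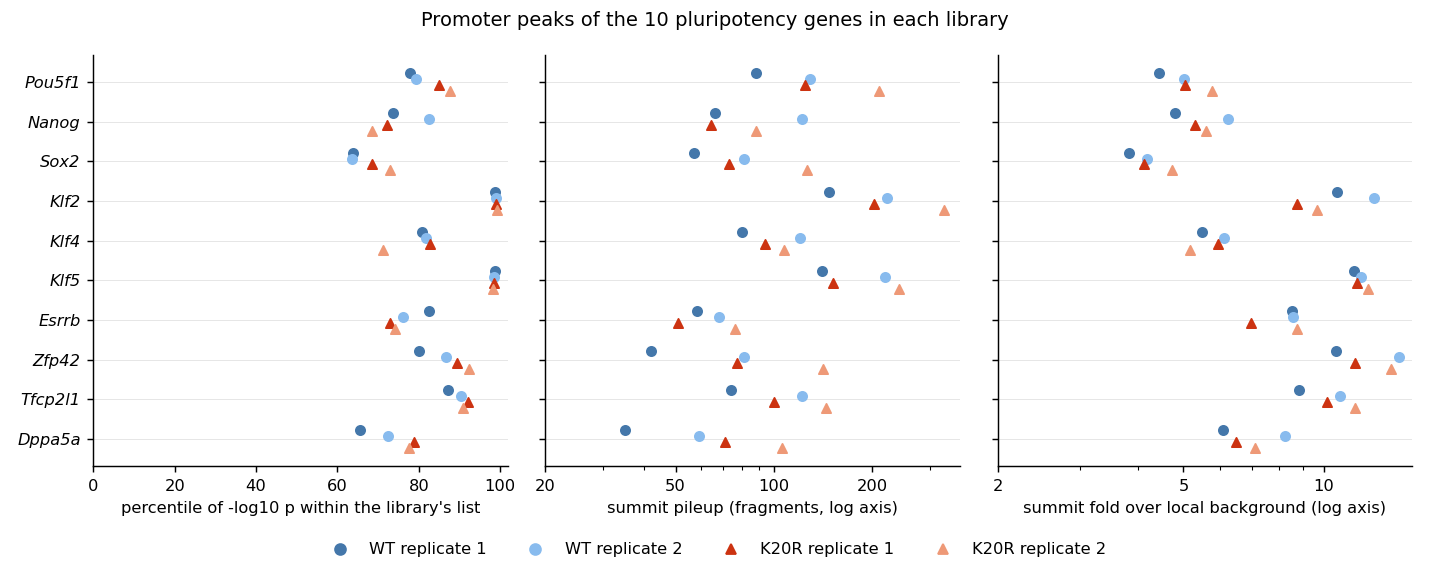
Promoter peaks of the 10 genes in the 4 libraries, as the percentile of −log10 p within a list, as summit pileup and as summit fold over local background (both on log axes). Circles are WT and triangles K20R libraries. Pou5f1, Sox2, Klf2, Zfp42, Tfcp2l1 and Dppa5a have both K20R percentiles above both WT percentiles. The folds of the genotypes overlap except at Klf2, where they are lower in K20R, and at Pou5f1, where they are higher.

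The heights of the peaks were then compared in the 38527 regions shared by all lists with limma, on log2 values after quantile normalization and with Benjamini-Hochberg adjustment over all of these regions. On the fold over local background, 3.63% of the common regions were lower and 2.48% higher in K20R at an adjusted p below 0.05, and 1.51% of the promoter regions passed in either direction. None of the 10 promoters and none of the 54 common regions near them passed this limma test on fold, and 1 and 7 of them, respectively, had an unadjusted p below 0.05, which 7.61% of all promoter regions and 18.2% of all common regions had. The median log2 difference was 0.069 over the 54 regions and 0.014 over all common regions. The normalized folds of the genotypes did not overlap in 16 of the 54 regions that were higher in K20R and in 10 that were lower, against 23.5% and 21.9% of all common regions. Of the fold differences, the lowest adjusted p-values were at the Sox2 region 20.5 kb downstream (log2 difference 0.66, SE 0.23, limma adjusted p = 0.082), at an Esrrb intron 17.0 kb upstream of its TSS (0.62, SE 0.22, adjusted p = 0.0951) and at the Klf5 region 40.4 kb downstream (−0.47, SE 0.16, adjusted p = 0.085). With regions of low mean −log10 p left out, the Sox2 region passed (limma adjusted p = 0.0443), and without K20R replicate 2 the Klf5 region did (−0.70, adjusted p = 0.032). Without WT replicate 1 a Klf5 exon 14.0 kb downstream passed (1.27), and without K20R replicate 1 a region 20.0 kb upstream of Pou5f1 (−1.29), both of which lack a peak in the library left out.

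On the summit pileup the picture differed. Over all common regions, 9.73% were higher and 10.7% lower in K20R, and near the 10 genes 15 of 54 (27.8%) were higher and 3 (5.56%) were lower. Without Klf2, which lies in a raised chromosome stretch described below, 11 of 49 (22.4%) were higher and 3 were lower. The median log2 pileup difference was 0.29 over the 54 regions and 0.22 without Klf2, against 0.032 over all common regions. The local background moved in the same direction as the pileup, with a median log2 difference of 0.24 near the 10 genes and 0.053 over all common regions. A fold divides the pileup by the background. The study names no control library for ATAC-seq, so the background may come from the same fragments and cannot be taken as an independent measure. The call on pileup needed all 4 libraries: with any library left out, no region in the genome passed, and the adjusted p of the 18 regions lay between 0.163 and 0.336. All 18 kept their direction when a library was left out. At each of them both normalized K20R values lay beyond both WT values. The direction could therefore hardly turn, and its keeping is no separate support.

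**Figure D3:**
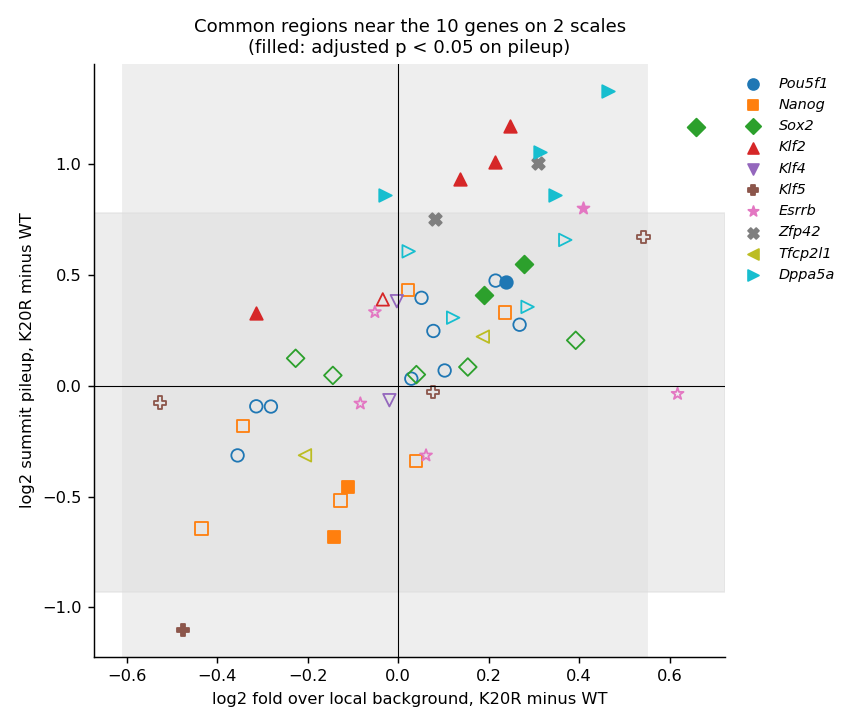
Log2 differences (K20R minus WT) of the 54 common regions near the 10 genes, on fold over local background (horizontal) and on summit pileup (vertical), with filled symbols for an adjusted p below 0.05 on pileup. Shaded bands run from the 5th to the 95th percentile of all 38527 common regions. Most filled symbols of Dppa5a and Klf2 and the intronic region of Zfp42 lie above the band on pileup but inside it on fold. The Zfp42 promoter lies inside both bands.

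Among the promoters, 5 of 10 were higher on pileup and 0 were lower, against 7.43% and 5.27% of 12942 promoter regions. The 5 were Pou5f1, Sox2, Zfp42, Dppa5a and Klf2, the last of which lies in the raised chromosome stretch described below. At the Pou5f1 promoter region, chr17:35503749-35506426, the pileup was 88 and 129 fragments in WT against 124 and 209 in K20R. The second library of each genotype had the higher pileups (medians over its list of 33 in WT against 38 in K20R, against 25 and 29), so the raw numbers of the genotypes overlapped, and they did not overlap after normalization (1.39-fold, log2 difference 0.47, SE 0.11, limma adjusted p = 0.00572). The Sox2 promoter region, chr3:34647946-34651360, had 57 and 81 fragments in WT against 73 and 126 in K20R (1.33-fold, log2 difference 0.41, SE 0.14, limma adjusted p = 0.0487). Nanog gave 66 and 122 fragments in WT against 64 and 88 in K20R at chr6:122706515-122707889, with a log2 difference of −0.34 (SE 0.15) that did not pass (limma adjusted p = 0.128).

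The naive markers had the largest promoter differences on this scale. The Dppa5a promoter region, chr9:78367730-78368626, had 35 and 59 fragments in WT against 71 and 106 in K20R, above both WT values (1.82-fold, log2 difference 0.86, SE 0.16, limma adjusted p = 0.000985). Its local background was 4.91 and 6.29 in WT against 10.1 and 14.1 in K20R, and its fold was 6.09 and 8.23 in WT against 6.49 and 7.10 in K20R. The fold was thus alike between genotypes where the pileup was not. The Zfp42 promoter region, chr8:43306683-43307471, had 42 and 81 fragments in WT against 77 and 141 in K20R (1.69-fold, log2 difference 0.75, SE 0.16, limma adjusted p = 0.00275). Its background was 3.06 and 4.67 in WT against 5.70 and 9.19 in K20R, so that here too pileup and background were raised together.

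The other naive promoters gave no call except Klf2. Klf4 had 80 and 120 fragments in WT against 94 and 107 in K20R, Klf5 had 140 and 218 in WT against 152 and 241 in K20R, and Esrrb had 58 and 68 in WT against 51 and 76 in K20R. Their log2 pileup differences were −0.065 (SE 0.15), −0.028 (SE 0.093) and −0.080 (SE 0.17). Tfcp2l1 had 74 and 122 fragments in WT against 100 and 144 in K20R, with a difference of 0.22 (SE 0.12, limma adjusted p = 0.236). Their directions were thus mixed, and each difference was within about 2 SE of 0.

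Around Dppa5a the pileup was higher in K20R at all 8 common regions, of which 4 passed. At the sequence shown 0.913 kb upstream of the TSS, the pileup was 14 and 26 fragments in WT against 44 and 55 in K20R, and the genotypes did not overlap (2.52-fold, log2 difference 1.33, SE 0.23, limma adjusted p = 0.000546). At the intergenic region 9.40 kb downstream it was 31 and 41 in WT against 64 and 93 in K20R, again without overlap (2.08-fold, log2 difference 1.05, SE 0.17, limma adjusted p = 0.000349). The region 9.44 kb upstream covers the promoter of Ooep, an oocyte-expressed gene of the same cluster, and had 16 and 20 fragments in WT against 28 and 40 in K20R (1.82-fold, limma adjusted p = 0.0153). The strongest distal region of the locus, at the Ddx43 promoter 27.3 kb upstream, had 65 and 128 fragments in WT against 94 and 157 in K20R, and its log2 difference of 0.31 (SE 0.14) did not pass. On fold the 8 regions had log2 differences between −0.029 and 0.46. On pileup centred on the autosomal median of each library, 58.0% of common regions on autosomes other than chromosome 8 were higher in K20R. This share stands beside the counts of directions here and at Sox2, Nanog and Pou5f1 below. Neighbouring regions of a locus need not be independent.

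At Zfp42, an intronic region 0.864 kb downstream of the TSS had 23 and 31 fragments in WT against 36 and 87 in K20R, all higher in the mutant (2.01-fold, log2 difference 1.01, SE 0.23, limma adjusted p = 0.00454). It and the promoter were the common regions of this locus.

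Sox2 had 8 common regions, all with a positive pileup difference, and 3 of them passed. The 20.5 kb downstream region shown had 15 and 20 fragments in WT against 29 and 56 in K20R, with no overlap (2.25-fold, log2 difference 1.17, SE 0.24, limma adjusted p = 0.00202). It ranked at percentile 13.9 and 19.4 in WT against 42.4 and 55.9 in K20R, so a weak WT site was of medium rank in the mutant. The strongest distal Sox2 region, 17.8 kb downstream, had 36 and 63 fragments in WT against 60 and 88 in K20R (1.46-fold, log2 difference 0.55, SE 0.17, limma adjusted p = 0.0276). The other 5 distal regions had log2 differences between 0.047 and 0.21.

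At Nanog the directions were mixed, with 6 of 8 common regions lower in pileup. The region 4.31 kb upstream of the TSS had 78 and 135 fragments in WT against 62 and 103 in K20R (log2 difference −0.45, SE 0.14, limma adjusted p = 0.0247). The strongest distal region, which starts just past the 3′ end of the gene 7.23 kb from the TSS, had 85 and 133 fragments in WT against 52 and 97 in K20R (log2 difference −0.68, SE 0.14, limma adjusted p = 0.00219). After normalization both genotypes were apart at these sites, which flank the gene. Regions 37.0 kb upstream and at the Slc2a3 promoter 34.2 kb downstream had positive differences of 0.43 and 0.33, and neither passed.

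Pou5f1 had 10 common regions, 7 positive and 3 negative, and the promoter was the region that passed. Its strongest distal region covers the Tcf19 and Cchcr1 promoters 9.94 kb downstream and had 99 and 161 fragments in WT against 152 and 186 in K20R (log2 difference 0.28, SE 0.12, limma adjusted p = 0.127). At Esrrb, 1 of 5 common regions passed, at a promoter of other Esrrb transcripts 48.1 kb downstream of the main TSS, with 31 and 54 fragments in WT against 61 and 90 in K20R (1.74-fold, log2 difference 0.80, SE 0.17, limma adjusted p = 0.00309). The strongest distal Esrrb region, in an intron 11.4 kb downstream, had 49 and 63 fragments in WT against 59 and 91 in K20R (0.33, SE 0.16) and did not pass.

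The largest decrease was at Klf5. The intergenic region 40.4 kb downstream of its TSS, chr14:99339044-99340999, had 81 and 116 fragments in WT against 34 and 68 in K20R, below both WT values (log2 difference −1.10, SE 0.17, limma adjusted p = 0.00016). It ranked at percentile 91.5 and 91.1 in WT against 61.0 and 74.9 in K20R. It lies outside a lowered stretch of chromosome 14 (34634838 to 66176004). The strongest distal regions of Klf4, 17.1 kb downstream, and Tfcp2l1, in an intron 19.8 kb downstream, had differences of 0.38 (SE 0.14) and −0.31 (SE 0.14), and neither passed.

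**Figure D4:**
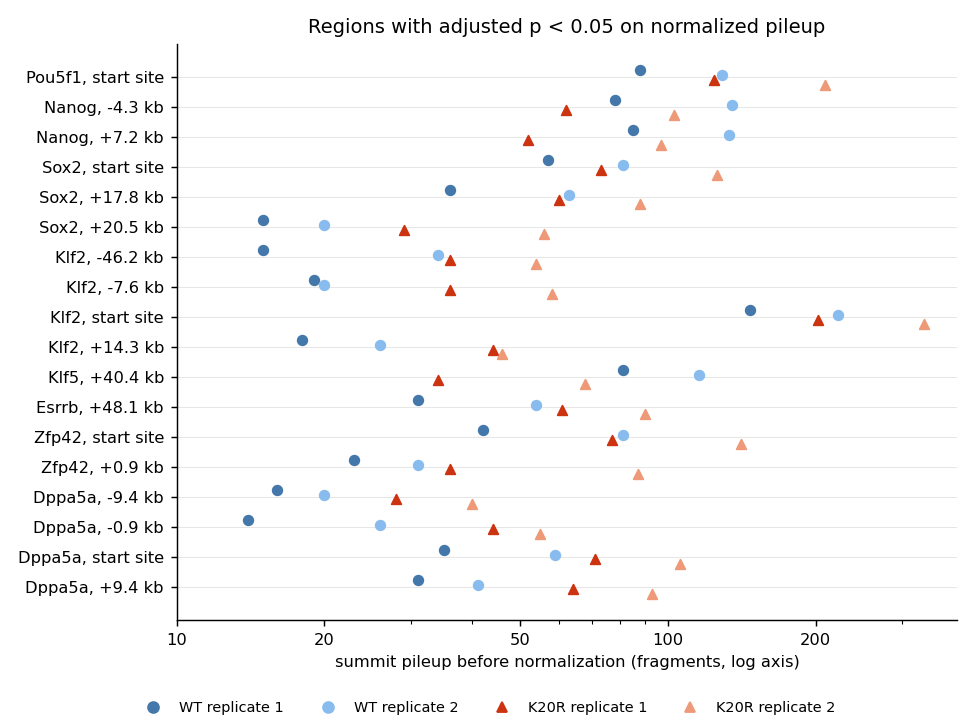
Summit pileup before normalization, in fragments on a log axis, at the 18 common regions near the 10 genes with a limma adjusted p below 0.05 on normalized pileup, each library as a symbol. The Sox2 region at 20.5 kb runs from 15 and 20 fragments in WT to 29 and 56 in K20R, and the Klf5 region at 40.4 kb from 81 and 116 to 34 and 68.

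Klf2 was judged apart, since it lies between positions 61927660 and 112046551 of chromosome 8, where windows of 40 common regions were higher in K20R in every pair of libraries. Over the 1040 common regions of that stretch the median log2 pileup difference was 0.66, against 0.085 over the rest of chromosome 8, with each library centred on its median over the autosomes, while the median log2 fold difference was 0.061. The Klf2 promoter region, chr8:72318548-72320521, had 147 and 222 fragments in WT against 202 and 332 in K20R (1.25-fold, log2 difference 0.33, SE 0.087, limma adjusted p = 0.0127), and its centred difference of 0.48 was below the median of the stretch. Its fold was 10.7 and 12.8 in WT against 8.75 and 9.68 in K20R, lower in both mutant libraries (log2 difference −0.31, SE 0.15, limma adjusted p = 0.249). The distal regions 46.2 kb upstream, 7.60 kb upstream and 14.3 kb downstream passed as well (limma adjusted p = 0.0111, 0.00157 and 0.00497), with centred differences of 0.92, 1.18 and 1.01, above the median of the stretch. The strongest distal region, in an Eps15l1 intron 46.5 kb downstream, had a centred difference of 0.38 and did not pass. Zfp42 is on chromosome 8 as well, but outside the stretch.

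Regions held by both lists of a genotype and by neither list of the other were also counted. Near the 10 genes there were 8 K20R-restricted regions (7.92% of 101, against 3.1% of all regions) and 4 WT-restricted regions (3.96%, against 10.4%). None was a promoter. Without Klf2 there were 6 K20R-restricted and 3 WT-restricted regions. In the raised stretch that holds Klf2, 5.51% of regions were K20R-restricted and 5.21% WT-restricted. Because called peaks are missing from the lists, it was asked where no peak number is missing at that place in either list of the other genotype, so that no peak can have been removed there. This held for 4 K20R-restricted and 2 WT-restricted regions. The same count over all restricted regions of either class is not given, so these numbers cannot be set against the genome. Leaving out a library widens both classes. WT-restricted regions numbered 13, 8 and 8 without WT replicate 1, WT replicate 2 and K20R replicate 2, where their shares of all regions were 20.8%, 17.2% and 15.8%. K20R-restricted regions numbered 12, 13 and 14 without WT replicate 2, K20R replicate 1 and K20R replicate 2, where their shares of all regions were 7.45%, 8.05% and 7.09%. Restricting the lists to the same number of strongest peaks gave 11 K20R-restricted and 1 WT-restricted region, and the shares of all regions were then 6.29% and 8.04%.

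Of the K20R-restricted regions with no missing number, the strongest was 2.30 kb upstream of Klf2, with 76 and 132 fragments at percentile 62.7 and 69.2, inside the raised stretch. The Sox2 region 3.29 kb downstream of the TSS, shown above, had 45 and 81 fragments at percentile 42.0 and 50.5. The Dppa5a region 2.95 kb downstream, shown above, had 31 and 56 fragments at percentile 36.0 and 45.5. A Tfcp2l1 intron 14.6 kb downstream was weak, with 13 fragments in each mutant library. The remaining K20R-restricted regions lay 12.4 kb downstream of Nanog, 37.1 kb upstream of Klf2, 13.8 kb upstream of Zfp42 and in a Zfp42 exon 10.7 kb downstream, and at each of them at least 1 peak number is missing in a WT list. The WT-restricted regions with no missing number were weak, 3.58 kb upstream of Nanog (31 and 38 fragments, percentile 19.9 and 11.6) and 7.73 kb downstream of Sox2 (17 and 21 fragments, percentile 7.98 and 5.22). Those with a missing number were in a Slc2a3 intron 37.0 kb downstream of Nanog and 18.1 kb downstream of Klf2.

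Other genes of the network were read by the same fits at their promoters. Of 24 further pluripotency genes, 18 had a promoter peak in all 4 lists, and none passed on fold. On pileup 1 was lower (Tdgf1, a Nodal co-receptor) and 1 was higher (Rif1, a telomere and replication-timing factor). The shares over all promoter regions were 5.27% lower and 7.43% higher on pileup, and 1.51% in either direction on fold. A count of 1 of 18 is close to either pileup share. Tdgf1 had 110 and 167 fragments in WT against 79 and 119 in K20R (log2 difference −0.60, SE 0.12, limma adjusted p = 0.00135). Rif1 had 73 and 94 in WT against 95 and 165 in K20R (0.49, SE 0.13, limma adjusted p = 0.014). The promoters of Dppa2 and Dppa4, neighbouring genes active in early embryos and stem cells, had peaks in both K20R lists and in neither WT list. Dppa2 had 10 and 19 fragments (percentile 6.56 and 29.7) and Dppa4 had 21 and 29 (percentile 39.6 and 35.9). A peak may have been taken out of a WT list there, as missing peak numbers are not given for these sites. Tet1 had a promoter peak in WT replicate 2 only, and Tcl1 in K20R replicate 2 only. No peak was listed at the Dppa3 and Nr5a2 promoters. All 5 genes of the LIF-STAT3 pathway (Lifr, Il6st, Jak1, Stat3 and Socs3) had promoter peaks in the 4 lists, and none passed on either scale.

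Markers of other cells in an EB were read in the same way. On pileup, 3 of 8 day 4 streak and epiblast markers were lower (T, Fgf5 and Otx2) and none higher. So were 3 of 4 endoderm markers (Foxa2, Gata4 and Gata6) and 1 of the 2 trophoblast markers with a peak in every list (Cdx2). Of all promoter regions, 5.27% were lower on pileup. Otx2 and Gata4 lie inside the lowered stretch of chromosome 14, where the median log2 pileup difference, centred as for Klf2, was −0.77. Their log2 differences were −0.60 and −1.16 on pileup and 0.14 and 0.13 on fold. The other markers with a peak in every list did not pass on pileup, and the marker calls too were lost when any library was left out. On fold, Mesp1 was the only one of them that passed, and it was higher (log2 difference 1.41, SE 0.24, limma adjusted p = 0.000246), whereas its pileup was 50 and 71 fragments in WT against 47 and 72 in K20R. The summed promoter fold of the endoderm markers was 20.1 and 20.3 in WT against 15.3 and 17.9 in K20R, and that of the day 4 markers was 46.8 and 48.7 in WT against 44.8 and 54.2 in K20R. None of the 4 neuroectoderm markers passed. The part of cell composition in the differences at the 10 genes was not tested. Fibroblast markers, read because of the feeder cells, had promoter peaks in all 4 lists at 5 of 8 genes, and none passed. The lists do not show which cells carry these peaks. Thy1 came closest on pileup (log2 difference −0.40, SE 0.14, limma adjusted p = 0.0522), and the others of the 5 had positive differences. The summed fold of these 5 was 32.2 and 43.0 in WT against 31.3 and 42.4 in K20R. Dcn had a promoter peak at fold 7.97 and 12.4 in WT and 4.49 in K20R replicate 2, with none listed in K20R replicate 1, and no peak was listed at the Col3a1 and Lum promoters.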

How the data were processed

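ATAC-seq peak lists of 2 WT and 2 CTCF-K20R EB libraries were analysed, grouped by the genotype and replicate number of their labels. As the study describes, reads were trimmed with Trim Galore, aligned to mm10 with Bowtie2, filtered for mapping quality, duplicates and blacklisted regions, and peaks were called with MACS2, here taken to be per library, since each has its own list. The deposited values of a peak are the authors' whole-number score, the fold (a ratio of summit pileup to local background), −log10 p and −log10 q. The deposited score was not used. Whole pileups were recovered from the authors' fold and −log10 p for 100% of peaks, within a tolerance of 0.02. Read totals were not used here, and the peak counts and pileups given stand for depth.

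Peaks sharing 1 bp were merged. TSSs came from the GENCODE vM21 basic annotation (APPRIS principal transcripts), and the promoter region was the strongest region within 1 kb. Each common region carried its highest peak per library. Log2 fold was quantile normalized and tested with limma 3.58.1 in R 4.3.3 (eBayes with a trend, adjusted p threshold 0.05), and log2 pileup, a listed alternative, was tested likewise. A stretch was at least 3 neighbouring windows of about 40 common regions in which all pairs of WT and K20R libraries differed by over 0.3 in median log2 pileup. Python 3.11.15 was used for the rest. The scripts were tested on simulated data. The limma p-values rest on 2 libraries per genotype. The variance of a region is moderated towards a trend over all common regions, so they do not measure the spread of its own libraries alone. The members and the other gene lists were chosen with earlier results of these data known. Alternatives were other values and normalizations, filters, merging rules, TSSs and windows, a replicate block and leaving out each library.

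Text named all members, each restricted region, common regions that passed, the strongest distal region of each gene over 1 kb from the TSS, and listed genes that passed. Regions that passed on pileup were named under the same rule after their values were seen. Zfp42 had no distal region with a peak in all lists.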

Additional observations from a re-analysis of the deposited data

How the results depend on the processing

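The choice of value decided most calls. With summit pileup in place of fold, 7877 common regions were called in place of 2354 (4129 lower and 3748 higher, in place of 1400 and 954), 18 of 54 near the 10 genes in place of 0, and 5 promoters in place of 0. With −log10 p they were 6186 (3333 lower, 2853 higher), 11 and 3. On pileup the direction turned at Nanog (−0.34), Klf2 (0.33), Klf5 (−0.028) and Dppa5a (0.86). On −log10 p it turned at Nanog (−0.27), Klf2 (0.13) and Dppa5a (0.72). A mean −log10 p of at least 10 gave 1 call near the genes and a 150 kb window gave 2. Leaving out each library gave 1692 to 2050 calls in the genome (976 to 1220 lower and 472 to 1074 higher, with 630 higher without K20R replicate 1 and 472 without K20R replicate 2), 0 to 1 near the genes, and on pileup 0 higher and 0 lower near them and 0 promoters, where limma has 1 residual degree of freedom per region. Promoter log2 folds, which passed nowhere, turned in sign without a library at Nanog (−0.091 to 0.22), Klf4 (−0.27 to 0.28), Klf5 (−0.044 to 0.19), Esrrb (−0.27 to 0.087), Zfp42 (−0.000956 to 0.16) and Dppa5a (−0.14 to 0.12). WT-restricted regions numbered 4, and 1 with equal list lengths, 2 within 10 kb, 14 within 150 kb, 2 with no missing numbers, and 5 to 13 without a library. K20R-restricted regions numbered 8, and 3 within 10 kb, 20 within 150 kb, 4 with no missing numbers, and 9 to 14 without a library. Promoters ranked lower were 3, 0 when ranked anew, 1 by fold and 3 to 4 without a library. Those ranked higher were 6, 2 by fold and 6 to 7 without a library. The cause of these shifts was not tested. The labels do not say what replicate numbers share across genotypes, and 2 pairs do not show it. Over 38527 regions the replicate differences correlated at 0.214 on fold and 0.0514 on pileup. With the replicate block, 2428 regions were called on fold, with 0 near the genes, and on pileup, in an alternative added after the data were seen, 18 higher and 4 lower near them, including all 18 called without it. Median centring of pileup, also added then, gave 20 higher and 3 lower. The difference (K20R minus WT) in peaks near the genes per 1000 listed peaks was 0.106 within 10 kb and 0.516 within 150 kb, in place of 0.260 within 50 kb. The other counts stayed within 1.5 times of those given.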
